A study of Saccharomyces cerevisiae with 18 samples.

Results

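The 10 genes described here encode the enzymes that build and break down glycogen and trehalose, the storage carbohydrates of Saccharomyces cerevisiae. They are GLG1, GSY1, GSY2, GLC3, GPH1 and GDB1 for glycogen, and TPS1, TPS2, TSL1 and NTH1 for trehalose. They were found on the array by gene symbol and are 10 of the 5449 S. cerevisiae genes measured on the array. All arrays came from BY4742, a haploid laboratory strain of alpha mating type, which was grown in YPD, a rich medium. Cultures in the middle of exponential growth were given 1 or 5 mg/L nonylphenol from an ethanol solution, and controls were given ethanol alone, so that all 6 groups carried the solvent. Nonylphenol is an alkylphenol left when some industrial surfactants break down. Cells were collected after 120 or 180 min, and each pairing of dose with time, 6 in all, had 3 arrays. The series asked how transcript levels across the genome respond to these concentrations.

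Glycogen is a branched polymer of glucose. Glycogenin starts a chain, glycogen synthase extends it and a branching enzyme adds side chains, while phosphorylase and a debranching enzyme release the glucose again. Trehalose, a disaccharide of glucose, is made by a complex of a synthase, a phosphatase and regulatory subunits and is split by trehalases. Yeast is known to accumulate both when growth slows or under stress, and many of these genes respond to the stress factors Msn2 and Msn4 and to protein kinase A.

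Values are RMA signals on the log2 scale as deposited, with SD over 3 arrays, and every array is quoted in the order of replicates 1, 2 and 3. All 10 members lay above the background level of 1.86 on all arrays, and the lowest member value was 6.61. Replicate arrays correlated at r = 0.994 to 0.999 over all S. cerevisiae probe sets. URA3 and LYS2, which this strain lacks, had means of 0.95 and 1.54 in controls at 120 min, under background, and the alpha-specific genes SAG1 and STE3 had means of 11.58 and 10.02. At 5 mg/L, limma called STE3 (-0.54 and -0.45) and the alpha-specific MF(ALPHA)2 (-0.43 and -0.41) lower than controls at 120 and 180 min. SAG1 (0.26) and MF(ALPHA)1 (0.37) were called higher at 180 min and not at 120 min. Of 5 a-specific genes, 4 (MFA1, MFA2, AGA2 and BAR1) were higher at 120 min in the 5 mg/L group than in its controls, and all 5 at 180 min, where the arrays of STE2 overlapped. The mean log2 signal of those 5 genes ran from 3.45 to 3.50 on the control arrays at 120 min and from 5.14 to 5.30 at 5 mg/L. At 180 min it ran from 3.31 to 3.32 in controls and from 5.00 to 5.17 at 5 mg/L, and its part in the results below was not tested.

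All changes below are given as the arrays were scaled on deposit. The array also carries bacterial control sequences (poly-A controls), which laboratories can spike into the RNA. The sample titles do not say whether these RNAs were spiked. The mean signal of the sequences ran from 3.86 to 5.32 over the arrays, under the lowest member value of 6.61. After 120 min the mean signal of these sequences stood 0.78 (log2, SE 0.21) above the controls on the 5 mg/L arrays, and after 180 min the gap was 0.24 (SE 0.24). Scaling the arrays on these sequences lowers the change of every gene at 5 mg/L by the same amounts. It also brings in their spread between replicates, with means of 3.86, 4.49 and 4.61 in controls at 180 min. At 1 mg/L and 180 min the means were 3.99, 4.94 and 4.17. A call can thus be lost on this scaling without a smaller change. The 9 members called higher and 0 lower at 5 mg/L and 120 min became 0 higher and 2 lower, GSY1 (-0.71) and GLG1 (-0.59), with 1.73% of all probe sets called higher and 77.8% lower on that scaling. At 180 min, 7 higher and 2 lower became 1 higher, GDB1 (0.88, limma adjusted p = 0.0167), and 1 lower, GSY1 (-0.93, limma adjusted p = 0.0115), with 3.18% of all probe sets called higher and 6.82% lower. Differences between members on the same array do not depend on this scaling.

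**Figure D1:**
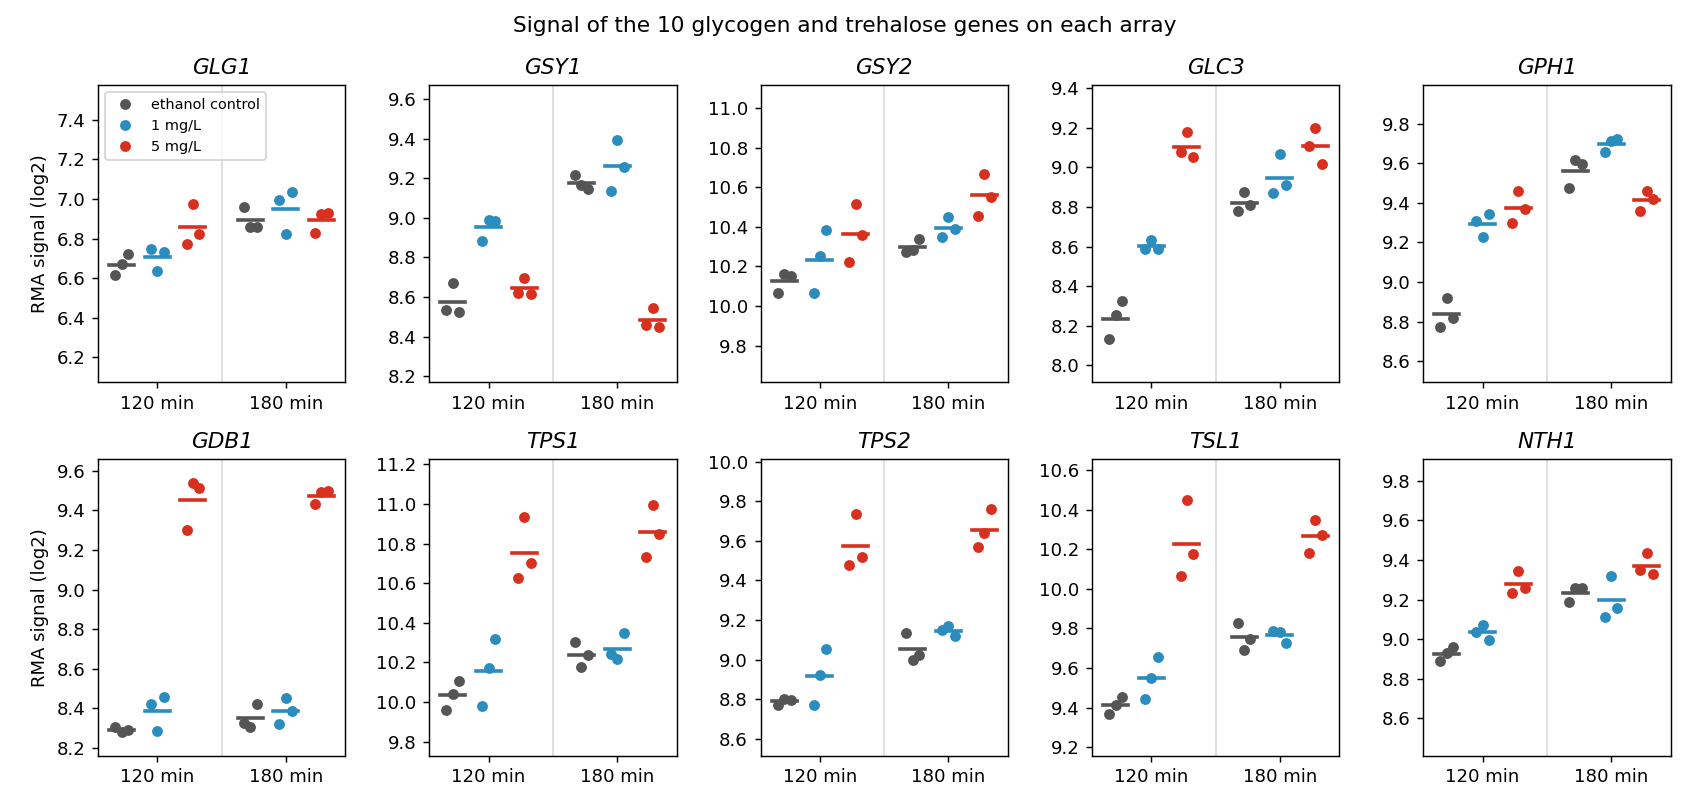
RMA signal (log2) of each gene on all 18 arrays, grouped by time on the x axis and coloured by dose, with points for arrays and bars for group means. The y axes all span the same log2 range but are centred on each gene, so heights compare groups within a gene and not genes with each other. GDB1, TPS1, TPS2 and TSL1 stand high at 5 mg/L at both times, and GSY1 at 5 mg/L lies below its controls at 180 min.

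At 5 mg/L and 120 min, 9 of the 10 genes rose against control on the deposited scaling and GSY1 did not pass the test. Of all probe sets, 25.4% were called higher and 32.7% lower in this comparison. The median change of the members was 0.63 (log2), against -0.04 over all probe sets. At 180 min, 7 members rose, GSY1 and GPH1 fell and GLG1 did not pass, with 27.1% of all probe sets called higher and 34.3% lower. The member median was then 0.27, again against -0.04 for all probe sets. With poly-A scaling the estimates of GPH1, GSY1, GSY2, GLG1, TPS1 and NTH1 at 120 min and of NTH1 and GLG1 at 180 min turned from above to below 0.

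On the deposited scaling, TPS1, TPS2 and TSL1, the 3 of the 10 genes that encode subunits of the trehalose synthase complex, rose at both times. TPS1 (YBR126C), the catalytic subunit that makes trehalose 6-phosphate, read 9.96, 10.04 and 10.10 in controls at 120 min and 10.62, 10.94 and 10.70 at 5 mg/L. The groups did not overlap, and TPS1 was 1.65-fold higher at 5 mg/L (log2 0.72, SE 0.09, limma adjusted p = 4.23e-06). At 180 min its controls read 10.30, 10.18 and 10.24 and the treated arrays 10.73, 11.00 and 10.85, again without overlap, a 1.54-fold difference (log2 0.62, SE 0.09, limma adjusted p = 1.97e-05). Its change at 120 min was -0.064 on the poly-A scaling.

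TPS2 (YDR074W), the phosphatase that completes trehalose, read 8.77, 8.80 and 8.80 in controls at 120 min against 9.48, 9.73 and 9.52 at 5 mg/L. All treated arrays lay above all controls, and the difference was 1.72-fold (log2 0.79, SE 0.08, limma adjusted p = 1.79e-07). At 180 min the controls read 9.14, 9.00 and 9.02 and the treated arrays 9.57, 9.64 and 9.76, a 1.52-fold rise (log2 0.60, SE 0.08). TSL1 (YML100W), a large regulatory subunit of the complex, read 9.37, 9.42 and 9.45 in controls and 10.06, 10.45 and 10.18 at 5 mg/L after 120 min. Its rise was 1.76-fold (log2 0.82, SE 0.08, limma adjusted p = 2.59e-07). At 180 min it read 9.83, 9.69 and 9.75 in controls and 10.18, 10.35 and 10.27 at 5 mg/L, a 1.42-fold rise (log2 0.51, SE 0.08). For these 3 subunits, all arrays at 5 mg/L lay above all controls of the same time. Of all probe sets, 28.7% at 120 min and 30.4% at 180 min had all 5 mg/L arrays above all controls of that time. Scaled on the poly-A controls, the changes at 120 and 180 min were 0.0032 and 0.36 for TPS2 and 0.033 and 0.27 for TSL1, and limma called none of them.

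NTH1 (YDR001C), the neutral trehalase that splits trehalose in the cytosol, moved less. It read 8.89, 8.93 and 8.96 in controls at 120 min and 9.24, 9.35 and 9.26 at 5 mg/L, a 1.28-fold rise without overlap (log2 0.35, SE 0.06, limma adjusted p = 4.57e-05). At 180 min the controls read 9.19, 9.26 and 9.26 and the treated arrays 9.35, 9.43 and 9.33, a difference of 0.14 (SE 0.06, limma adjusted p = 0.0444). That call was lost when any control at 180 min or 5 mg/L replicate 1 or 2 was left out (values of 0.10 to 0.15, limma adjusted p = 0.0618 to 0.166), and on the poly-A scaling the value was -0.10.

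Of the 6 glycogen members, GDB1 (YPR184W), the debranching enzyme, had the largest change at 5 mg/L. Its controls read 8.31, 8.28 and 8.29 at 120 min, and the treated arrays 9.30, 9.54 and 9.52. At 180 min it read 8.33, 8.31 and 8.42 in controls and 9.43, 9.49 and 9.50 at 5 mg/L. The treated arrays lay above all controls of the same time, as did those of 28.7% of all probe sets at 120 min and 30.4% at 180 min. The rises of GDB1 were 2.23-fold at 120 min (log2 1.16, SE 0.06, limma adjusted p = 3.02e-10) and 2.18-fold at 180 min (log2 1.12, SE 0.06, limma adjusted p = 3.92e-10). The times differed by -0.037 (SE 0.09) in this effect, which did not pass. Scaled on the poly-A controls, GDB1 had 0.38 at 120 min (limma adjusted p = 0.175) and 0.88 at 180 min.

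GLC3 (YEL011W), the branching enzyme, read 8.13, 8.25 and 8.32 in controls at 120 min and 9.08, 9.18 and 9.05 at 5 mg/L, a 1.82-fold rise (log2 0.87, SE 0.07, limma adjusted p = 1.22e-08). At 180 min the controls read 8.78, 8.88 and 8.81 and the treated arrays 9.11, 9.20 and 9.02. The groups again did not overlap, but the difference was smaller, 1.22-fold (log2 0.29, SE 0.07, limma adjusted p = 0.00121). The treated mean was 9.10 ± 0.07 (SD, n = 3) at 120 min and 9.11 ± 0.09 at 180 min, while the control mean was 8.24 ± 0.10 and then 8.82 ± 0.05. Poly-A scaling left 0.085 at 120 min and 0.049 at 180 min, neither called by limma.

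GPH1 (YPR160W), glycogen phosphorylase, was above control at 120 min and below it at 180 min. It read 8.77, 8.92 and 8.82 in controls at 120 min and 9.30, 9.46 and 9.37 at 5 mg/L, a 1.45-fold rise (log2 0.54, SE 0.06, limma adjusted p = 6.81e-07) that became -0.24 on the poly-A scaling. At 180 min the controls read 9.48, 9.61 and 9.60 and the treated arrays 9.36, 9.46 and 9.42. All treated arrays lay below all controls at that time, as did those of 39.6% of all probe sets. The change of GPH1 was -0.15 (SE 0.06, limma adjusted p = 0.0334). This fall lost its call without control replicate 2 or 3 or without 5 mg/L replicate 1 or 3 (values of -0.15 to -0.12, limma adjusted p = 0.0633 to 0.122) and with median centring (-0.13, limma adjusted p = 0.0623).

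Of the glycogen synthase isoforms, GSY1 fell at 180 min and GSY2 rose at both times. GSY1 (YFR015C) read 8.53, 8.67 and 8.52 in controls at 120 min and 8.62, 8.70 and 8.62 at 5 mg/L, with overlapping groups and a difference of 0.07 (log2, SE 0.06, limma adjusted p = 0.368). At 180 min it read 9.22, 9.17 and 9.15 in controls and 8.46, 8.54 and 8.45 at 5 mg/L. The treated arrays lay far below the controls, 1.62-fold lower (log2 -0.69, SE 0.06, limma adjusted p = 1.17e-07), and 1.71% of all probe sets had a value this low or lower in that comparison. GSY2 (YLR258W), known as the main isoform, read 10.07, 10.16 and 10.15 in controls at 120 min and 10.22, 10.52 and 10.36 at 5 mg/L, a rise of 0.24 (SE 0.08, limma adjusted p = 0.0185). It read 10.27, 10.28 and 10.34 in controls at 180 min and 10.46, 10.67 and 10.55 at 5 mg/L, a rise of 0.26 (SE 0.08, limma adjusted p = 0.0104). The GSY2 calls were lost at 120 min without control replicate 1 (0.21, limma adjusted p = 0.0711) or 5 mg/L replicate 2 (0.16, limma adjusted p = 0.107), and at 180 min without 5 mg/L replicate 2 (0.21, limma adjusted p = 0.0578).

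GLG1 (YKR058W), a glycogenin that primes new chains, read 6.61, 6.67 and 6.72 in controls at 120 min and 6.77, 6.98 and 6.82 at 5 mg/L, a rise of 0.19 (SE 0.07, limma adjusted p = 0.0224). That call was lost without control replicate 1 (0.16, limma adjusted p = 0.0868) or 5 mg/L replicate 2 (0.13, limma adjusted p = 0.122), and the value was -0.59 on the poly-A scaling. At 180 min GLG1 read 6.96, 6.86 and 6.86 in controls and 6.83, 6.92 and 6.93 at 5 mg/L, and the groups overlapped with a difference of 0.00 (SE 0.07).

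**Figure D2:**
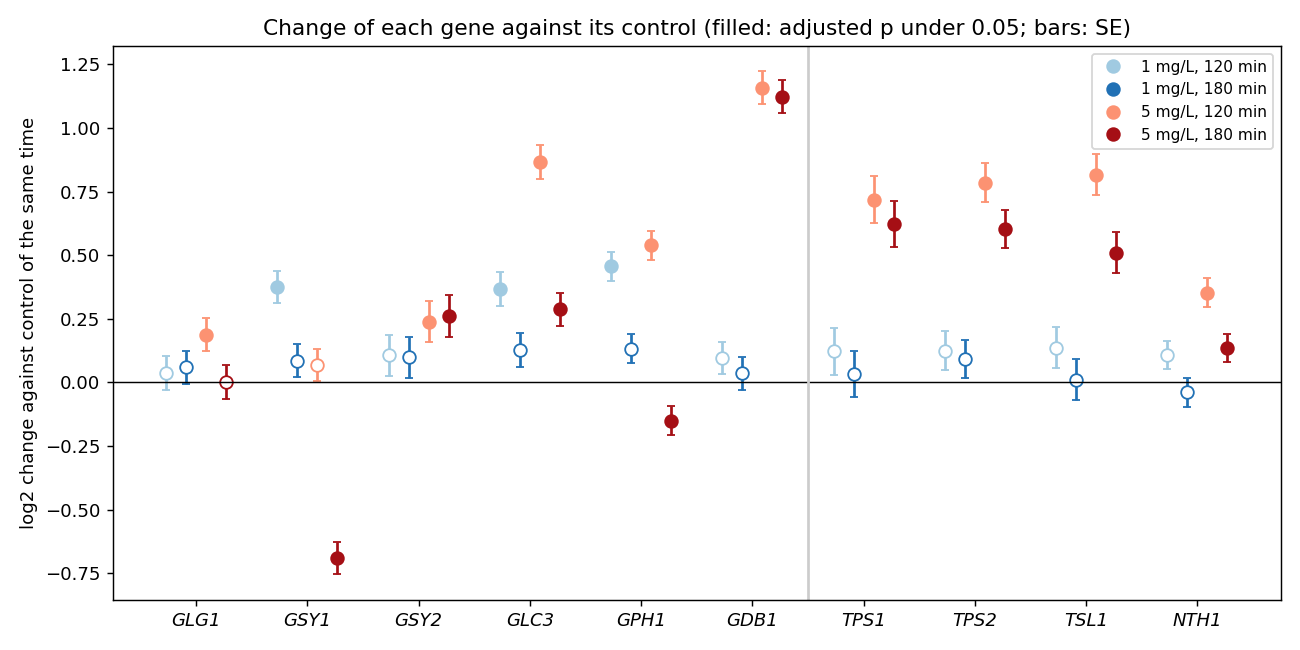
Log2 change of each gene against the control of the same time, with 1 mg/L in blue and 5 mg/L in red, and SE of the fit as bars. Filled points have a limma adjusted p under 0.05. The values at 1 mg/L and 180 min are all open and run from -0.040 to 0.13, and those at 5 mg/L run from -0.69 for GSY1 at 180 min to 1.16 for GDB1 at 120 min.

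Replicate 2 at 5 mg/L and 120 min gave the highest of the 3 readings for all 10 members, and replicate 1 of the 120 min controls gave the lowest for 8. Without this treated replicate 7 of the 9 calls held, those of GPH1, GLC3, GDB1, TPS1, TPS2, TSL1 and NTH1. Among the 5 mg/L arrays at 180 min, replicate 2 was highest for 7 members. The part of culture or array in this was not tested.

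The effect of 5 mg/L at 180 min was compared with that at 120 min in the same fit. It was lower for 3 members, GSY1, GPH1 and GLC3, and 7 did not pass, against 6.46% of all probe sets called lower and 8.53% higher. GSY1 differed by -0.76 (SE 0.09, limma adjusted p = 0.000177), GPH1 by -0.69 (SE 0.08, limma adjusted p = 0.000177) and GLC3 by -0.58 (SE 0.09, limma adjusted p = 0.00139). The estimates of the other 7 ran from -0.31 for TSL1 (SE 0.11) to 0.02 for GSY2 (SE 0.11). TSL1 passed without 5 mg/L replicate 1 at 120 min (-0.39, limma adjusted p = 0.038) and with array weights. NTH1 (-0.22) passed in a fit on the compared arrays only, with array weights and with a replicate block. The 3 called differences had values of -0.22, -0.15 and -0.036 on the poly-A scaling, where limma called 0 of the 10 members and 0 had an unadjusted p under 0.05. Of all 5498 probe sets, 5 were called higher and 0 lower on that scaling. Of the other 7 members, 6 turned from below to above 0 there, with values from 0.24 for TSL1 to 0.51 for GDB1.

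The control cultures themselves changed between the times. Of the 10 genes, 7 were higher in controls at 180 than at 120 min, with 11.1% of all probe sets called higher, 12.1% lower and a member median of 0.29 against 0.00 over all probe sets. GPH1 rose by 0.73 (SE 0.06, limma adjusted p = 7.86e-07), GSY1 by 0.60 (SE 0.06), GLC3 by 0.59 (SE 0.07), TSL1 by 0.34, NTH1 by 0.31, TPS2 by 0.26 and GLG1 by 0.22. GDB1 had a value of 0.06 (SE 0.06), TPS1 of 0.20 and GSY2 of 0.17, and these did not pass. The call of GLG1 was lost without replicate 1 or 2 of either control group (0.19 to 0.24, limma adjusted p = 0.0515 to 0.0965) and with quantile normalization (0.20), and that of TPS2 without replicate 1 or 3 at 120 min or replicate 1 at 180 min (0.22 to 0.27, limma adjusted p = 0.0583 to 0.0687).

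At 5 mg/L, 0 of the 10 members were called by limma between 120 and 180 min, with 0.364% of all probe sets called higher and 0.527% lower. An unadjusted p under 0.05 was found for 2 members and for 932 of all 5498 probe sets. The estimates of the 10 members ran from -0.16 for GSY1 (SE 0.06) to 0.19 for GSY2 (SE 0.08). At 1 mg/L, 4 rose over time, GPH1 (0.40), GLC3 (0.35), GSY1 (0.31) and GLG1 (0.25), with 3.46% of all probe sets called higher and 6.75% lower. GLG1 lost that call without replicate 2 or 3 at 120 min or replicate 1 or 3 at 180 min (0.20 to 0.26). NTH1 passed without replicate 1 at 180 min (0.20) and TPS2 without replicate 3 at 120 min (0.30), and in a fit on the compared arrays only GPH1 passed. These comparisons share arrays with those of dose against control. Scaled on the poly-A controls, limma called 0 members over time at any dose, with 1 at an unadjusted p under 0.05 in controls, 0 at 1 mg/L and 1 at 5 mg/L. Few of all 5498 probe sets were called on that scaling. There were 0 higher and 1 lower in controls, 0 in each direction at 1 mg/L, and 2 higher and 0 lower at 5 mg/L.

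**Figure D3:**
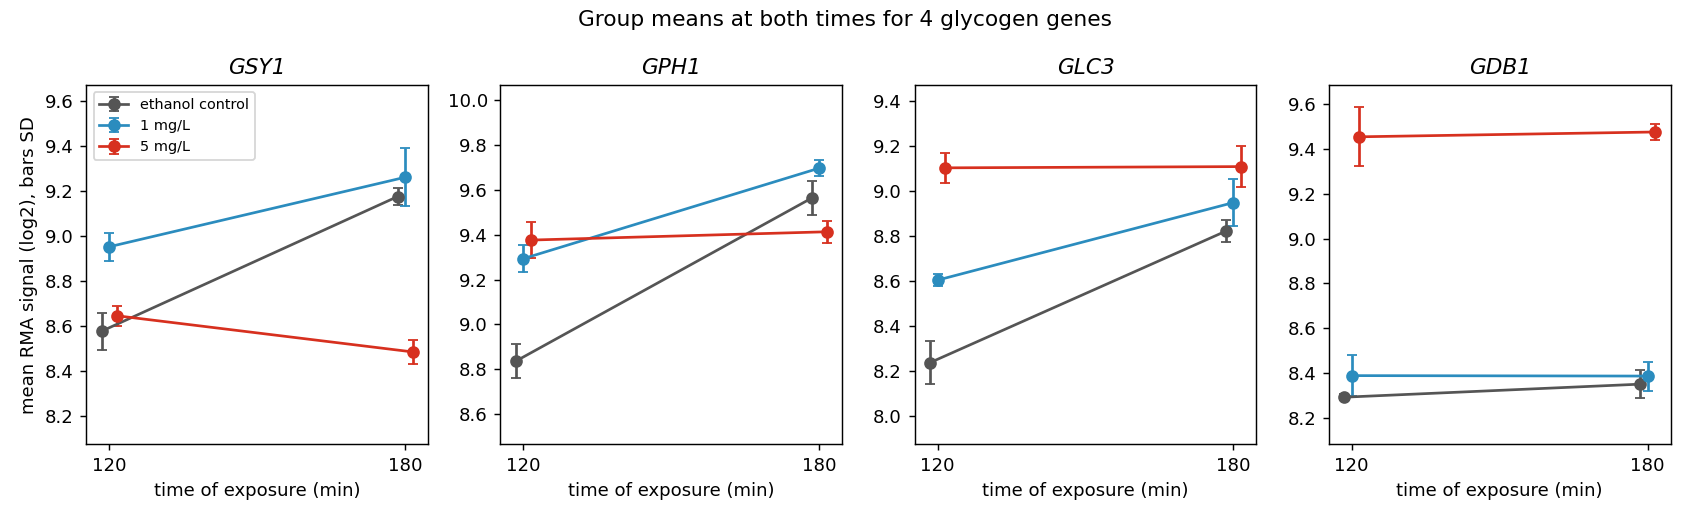
Mean RMA signal (log2) with SD over 3 arrays at 120 and 180 min for GSY1, GPH1, GLC3 and GDB1, coloured by dose and joined by lines for each dose. GSY1, GPH1 and GLC3 are higher in controls at 180 min than at 120 min, and the 5 mg/L means of the times differ by at most 0.16 in all 4 genes.

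At 1 mg/L and 120 min, GPH1, GSY1 and GLC3 rose and 7 members did not pass, against 0.218% of all probe sets called higher and 0.236% lower. GPH1 read 9.31, 9.23 and 9.35, all above its controls, and was 1.37-fold higher (log2 0.46, SE 0.06, limma adjusted p = 0.000886). GSY1 read 8.88, 8.99 and 8.99 and was 1.30-fold higher (log2 0.38, SE 0.06, limma adjusted p = 0.00693). GLC3 read 8.59, 8.64 and 8.59 and was 1.29-fold higher (log2 0.37, SE 0.07, limma adjusted p = 0.0106). For GPH1, GSY1, GLC3 and the uncalled NTH1, all 1 mg/L arrays lay above all controls, as for 5.20% of all probe sets.

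The count of 3 became 1, GPH1, without control replicate 1, where GSY1 had 0.35 (limma adjusted p = 0.0561) and GLC3 0.32 (limma adjusted p = 0.105). GSY1 also lost its call without control replicate 3 (0.35, limma adjusted p = 0.0607), and GLC3 without 1 mg/L replicate 2 (0.35, limma adjusted p = 0.067). In a fit on the compared arrays only GPH1 kept its call. With poly-A scaling limma called 0 of the 10 members and 0 of all 5498 probe sets. Of the members, 0 had an unadjusted p under 0.05 there, and GPH1, GSY1 and GLC3 had 0.51, 0.43 and 0.42. Those estimates exceed the ones on the deposited scaling, and the mean poly-A signal differed from controls by -0.054 (SE 0.14). The other 7 estimates at 1 mg/L and 120 min lay between 0.04 for GLG1 and 0.14 for TSL1. The trehalose genes TPS1, TPS2 and TSL1 had estimates of 0.12, 0.12 and 0.14.

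At 1 mg/L and 180 min, limma called 0 of the 10 members, and 1 had an unadjusted p under 0.05, as did 198 of all 5498 probe sets. Estimates ran from -0.040 for NTH1 to 0.13 for GPH1, with SEs of 0.06 to 0.09, and 0.0546% of all probe sets were called in each direction. GPH1 read 9.66, 9.71 and 9.72 and GSY2 10.35, 10.45 and 10.39, all above their controls at that time. The same separation was found for 3.22% of all probe sets. Between the times, the effect of 1 mg/L was not called by limma for any member or any of the 5498 probe sets, with 139 probe sets and 3 members at an unadjusted p under 0.05. GPH1 had the lowest difference, -0.32 (SE 0.08, limma adjusted p = 0.998).

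The doses were also compared with each other. At 120 min, 6 members were higher at 5 than at 1 mg/L, GSY1 was lower and 3 did not pass, with 24.3% of all probe sets called higher and 33.1% lower. GDB1 differed by 1.06 (SE 0.06), TSL1 by 0.68, TPS2 by 0.66, TPS1 by 0.60, GLC3 by 0.50 and NTH1 by 0.24, while GSY1 was lower by log2 -0.31 (SE 0.06, limma adjusted p = 0.000571). With poly-A scaling 0 were higher and 5 lower, GSY1 (-1.14), GPH1 (-0.75), GSY2 (-0.70), GLG1 (-0.68) and NTH1 (-0.59), with 1.26% of all probe sets called higher and 82.1% lower. GPH1 was at 0.08 (SE 0.06) on the deposited scaling, with overlapping ranges of 9.23 to 9.35 at 1 mg/L and 9.30 to 9.46 at 5 mg/L. GLG1 passed without 5 mg/L replicate 1 (0.20), and GSY2 without that array (0.20) or 1 mg/L replicate 3 (0.21).

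At 180 min, 6 members were higher at 5 than at 1 mg/L, GSY1 and GPH1 were lower and GSY2 and GLG1 did not pass, with 26.7% of all probe sets called higher and 32.7% lower. GSY1 stood at 9.14, 9.39 and 9.26 at 1 mg/L, above all arrays at 5 mg/L, and its difference was -0.78 (SE 0.06, limma adjusted p = 3.39e-08), while GPH1 had -0.28 (SE 0.06). GDB1 had 1.09 (SE 0.06) and TPS1 0.59 (SE 0.09). The smallest called rises were GLC3 at 0.16, which lost its call without any of 4 arrays (replicates 1 and 3 at 1 mg/L, replicates 1 and 2 at 5 mg/L, 0.11 to 0.16) or with quantile normalization (0.14), and NTH1 at 0.18, which lost it without 1 mg/L replicate 1 (0.13) or 5 mg/L replicate 2 (0.14). With poly-A scaling GDB1 alone was called higher (0.90) and GSY1 alone lower (-0.97), against 173 higher and 165 lower of the 5498 probe sets.

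The order of the 6 groups differed between genes. For TPS1, TPS2, TSL1 and GLC3 it ran from 5 mg/L at 180 min, through 5 mg/L at 120 min, 1 mg/L at 180 min, control at 180 min and 1 mg/L at 120 min, down to control at 120 min. In this order the 5 mg/L groups overlapped each other for all 4 genes, as did 1 mg/L and control at 180 min, and for GLC3 also 5 mg/L at 120 min and 1 mg/L at 180 min. The control and 1 mg/L groups at 120 min overlapped for TPS1, TPS2 and TSL1, and for TPS1 and TPS2 the 1 mg/L group at 120 min also overlapped the control at 180 min. GPH1 and GSY1 were highest at 1 mg/L and 180 min, followed by the control at 180 min, which overlapped it for GSY1. GPH1 was lowest in controls at 120 min, and GSY1 was lowest at 5 mg/L and 180 min, a group that overlapped the 120 min controls. GDB1 fell into a high set of both 5 mg/L groups and a low set of the other 4 groups, within which neighbours overlapped.

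Over the 18 arrays the members were compared with each other as a description, the arrays sharing dose and time groups. Of 45 pairs of members 39 had a Pearson r above 0, with a median of 0.69 and a range from -0.62 for GSY1 with GDB1 to 0.99 for TPS2 with TSL1. Against the mean of the other 9 members, GLC3 had r = 0.95, TSL1 0.94, NTH1 0.93 and TPS2 0.92. GPH1 had 0.59 and GSY1 -0.21. GPH1 and GSY1 had r = 0.65 with each other.

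Among the members, 4 were also read against a paralog as the log2 ratio on the same array, at 5 mg/L against control. These pairs were chosen after their values were seen, so the ratios are a description with no test. The ratio of GSY1 to GSY2 changed by -0.17 at 120 min and -0.95 at 180 min. TSL1 against TPS3, the paralogous regulatory subunit, changed by 0.62 and 0.33, NTH1 against NTH2, the second neutral trehalase, by 0.38 and 0.34, and GLG1 against GLG2, the second glycogenin, by 0.21 and 0.16. TPS3 itself rose by 0.19 (SE 0.06) and 0.18 (SE 0.06), NTH2 had -0.02 at 120 min and fell by 0.21 at 180 min (without control or 5 mg/L replicate 3 at -0.18 and -0.15, not called), and GLG2 had -0.02 and -0.16, neither called. The ratios were unaffected by scaling all genes of an array together.

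Other genes of glycogen metabolism were read from a list of 10. At 5 mg/L, 5 rose and 1 fell at 120 min, and 5 rose and 2 fell at 180 min, with medians of 0.24 and 0.22. Over all probe sets, 25.4% rose and 32.7% fell at 120 min and 27.1% rose and 34.3% fell at 180 min, and the counts of all lists below stand against these shares. GAC1, a subunit that directs the type 1 phosphatase Glc7 to glycogen synthase, rose by 1.75 (SE 0.12) at 120 min and 1.58 (SE 0.12) at 180 min, and it stayed called on the poly-A scaling at 0.97 and 1.34. SGA1, a glucoamylase known from sporulation, rose by 1.31 and 1.18, and the phosphatase-binding proteins GIP2 and PIG2 by 1.04 and 0.92 at 120 min and by 0.54 and 0.42 at 180 min. GLC8, a regulator of Glc7, rose by 0.37 and 0.41, and on the poly-A scaling its value at 120 min was -0.41.

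Among the others of that list, PIG1, another phosphatase-binding protein, fell by 0.32 at 120 min and had -0.15 at 180 min, where it did not pass. The cyclin PCL10, a partner of the kinase Pho85 that acts on glycogen synthase, had 0.11 at 120 min and fell by 0.29 at 180 min, not called without control replicate 2 or 3 or 5 mg/L replicate 3 (-0.26 to -0.24). PCL8, a cyclin of the same kinase, had 0.11 and 0.03 and was not called. GLC7, the catalytic phosphatase, had 0.08 at 120 min and fell by 0.19 at 180 min, not called without any of 4 arrays (control replicates 1 and 2, 5 mg/L replicates 2 and 3, -0.19 to -0.13) or with median centring (-0.17) or quantile normalization (-0.15). 

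Of 6 other trehalose genes, 4 rose at 120 min, and 4 rose and 1 fell at 180 min at 5 mg/L, with medians of 0.32 and 0.25. DCS2 and its paralog DCS1, a scavenger decapping enzyme, rose by 1.20 and 0.55 at 120 min and by 0.89 and 0.41 at 180 min. ATH1, the acid trehalase, rose by 0.41 and 0.33. MAL11, a transporter of trehalose and other alpha-glucosides, had 0.24 and -0.26, neither called, though the second passed without control replicate 1 (-0.34) or 5 mg/L replicate 2 (-0.35). With poly-A scaling the values of ATH1, DCS1, TPS3, MAL11 and NTH2 at 120 min and of TPS3, MAL11 and NTH2 at 180 min were below 0.

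Genes that supply glucose phosphates numbered 8. At 5 mg/L, 6 rose and 1 fell at 120 min, and 5 rose and 3 fell at 180 min. EMI2, related to hexokinases, rose by 1.32 and 0.79, PGM2, the main phosphoglucomutase, by 0.90 and 0.49, and GLK1, glucokinase, by 0.80 and 0.34. PGM1, the minor phosphoglucomutase, fell by 0.37 and 0.22. HXK1 and UGP1 were picked after their values were seen. HXK1, a hexokinase, rose by 0.34 at 120 min and fell by 0.28 at 180 min, with calls lost without 5 mg/L replicate 2 at 120 min (0.23) and without control or 5 mg/L replicate 1 at 180 min (-0.24 and -0.19). UGP1, which makes the UDP-glucose used for both polymers, had -0.11 at 120 min, not called, and fell by 0.45 at 180 min (SE 0.06).

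**Figure D4:**
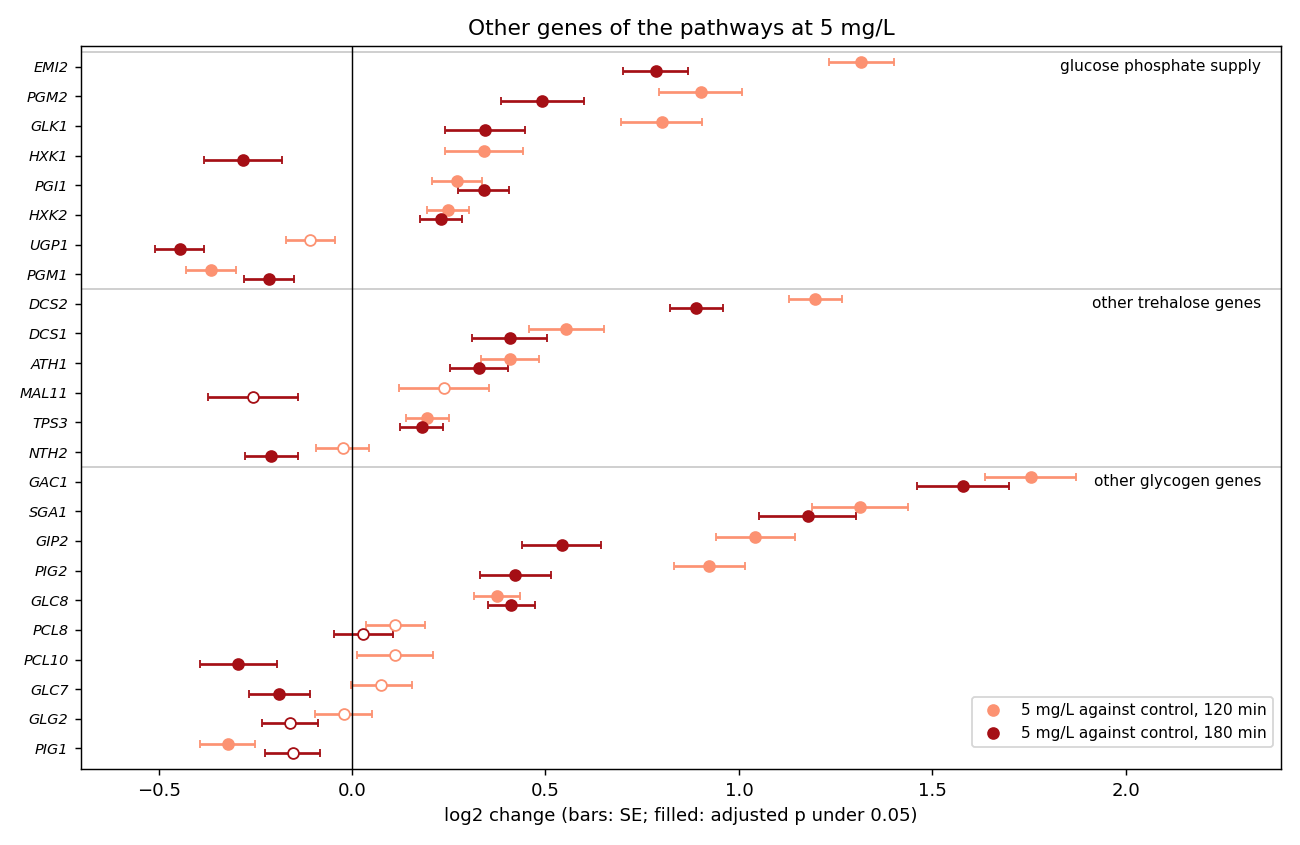
Log2 change at 5 mg/L against control for the other genes of glycogen and trehalose metabolism and of glucose phosphate supply, with SE as bars, light points for 120 min and dark points for 180 min. Filled points have a limma adjusted p under 0.05. GAC1 has the highest values, 1.75 and 1.58, and UGP1 the lowest, -0.45 at 180 min.

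Of 15 kinase genes and partners known to act on storage carbohydrates, 4 rose and 3 fell at 5 mg/L and 120 min, and 4 rose and 2 fell at 180 min. The 4 of 15 that rose stand near the shares of all probe sets, 25.4% and 27.1%. YAK1, a kinase opposing protein kinase A, rose by 0.43 and 0.39, the Pho85 cyclin PCL7 by 0.32 at 120 min and REG2, a Glc7 subunit, by 0.26 at 120 min, the last not called without control replicate 1 (0.21) or with quantile normalization (0.17). GAL83, a subunit of the Snf1 kinase, fell by 0.52 and 0.58. Of 14 genes of the Ras and cAMP pathway 13 were measured, and 6 rose and 1 fell at 120 min and 5 rose and 3 fell at 180 min. PDE2, the high-affinity cAMP phosphodiesterase, rose by 0.93 and 0.58, BCY1, the regulatory subunit of protein kinase A, by 0.37 and 0.53, and GPA2, a G protein subunit, by 0.37 and 0.41, while RAS1 fell by 0.47 and 0.24.

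Of 12 transcription factor genes, 5 rose and 2 fell at 120 min, and 9 rose at 180 min. USV1 rose by 1.04 and 0.97, MIG2, a glucose repressor, by 0.67 and 0.95, and HSF1, the heat shock factor, by 0.57 and 0.89. MSN4 fell by 0.40 at 120 min, a call lost without control replicate 3 (-0.38) or 5 mg/L replicate 1 (-0.26), and had 0.02 at 180 min. At 120 min, the poly-A scaling turned YAK1, PCL7, REG2, BCY1, GPA2, MIG2, HSF1 and HXK1 from above to below 0. At 1 mg/L limma called 0 genes of these 6 lists at either time, while the count in each list at an unadjusted p under 0.05 ran from 0 to 3 at 120 min and from 0 to 1 at 180 min. Of all 5498 probe sets, 238 at 120 min and 198 at 180 min had such a p.

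The 6 genes outside the members whose signal followed the member mean most closely over the 18 arrays were PGM2 (Pearson r = 0.976), GLK1 (0.975), GIP2 (0.95), RTC3 (0.945), APE1 (0.944) and MCR1 (0.944). PGM2, GLK1 and GIP2 stand in the lists above. RTC3, a protein of unclear function, had log2 changes at 5 mg/L of 1.33 at 120 min and 0.51 at 180 min, and it was higher in controls at 180 than at 120 min by 0.71. APE1, a vacuolar aminopeptidase, had 0.53 and 0.38 at 5 mg/L, and MCR1, a mitochondrial cytochrome b5 reductase, had 0.55 and 0.43.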

How the data were processed

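Transcript levels were measured on 18 single-colour Affymetrix arrays in 6 groups of 3. The deposited values are RMA signals per probe set, and RMA, affy and limma are named per the submitters' processing notes, with no versions or settings. The range of the deposited values, 0.41 to 13.74, was read as a log2 scale, since no source names the base. Of 10928 probe sets, 5498 matched an S. cerevisiae gene ID in the R64 gene table (5449 genes), and each of the 10 members matched 1 probe set of a type not shared between transcripts. The 1747 named probe sets of another yeast species gave a background level, the percentile 95 of their means.

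One model of 6 group means was fitted to all 5498 probe sets (limma 3.58.1, its functions lmFit, contrasts.fit and eBayes, under R 4.3.3). Within each of 11 comparisons, Benjamini-Hochberg adjustment ran over all of them, with a threshold of 0.05. Standard errors pool the spread of all 18 arrays. The fit was tested on simulated data. The number of arrays limits the precision, and the labels call the arrays of a group biological replicates. For paralog pairs, log2 ratios were taken on each array. Alternatives were quantile normalization, median centring, scaling on poly-A control transcripts, a filter on dim probe sets, a fit on the compared arrays only, trend and robust settings, array weights, a replicate block and leaving out each array.

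The members and lists were chosen with earlier results of these data known. All members and all other glycogen and trehalose genes listed are named. Of each further list the named genes are the 4 called genes with the largest absolute change at 5 mg/L and 120 min. The 6 genes most like the members are those with the highest Pearson r over the arrays. HXK1 and UGP1, the paralog pairs and their alternatives were added after their values were seen. Promoter sequences were not analysed here.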

Additional observations from a re-analysis of the deposited data

Results flagged for a closer look

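The effect of 5 mg/L differed between the times, by an interaction term in limma, for GPH1 (log2 -0.69), GSY1 (-0.76) and GLC3 (-0.58), each lower at 180 than at 120 min. Each of the 3 also rose in controls between the times, by 0.73, 0.60 and 0.59, and the control arrays enter both comparisons. On the poly-A scaling limma called none of the 3 differences, which were -0.15, -0.22 and -0.036. Of all 5498 probe sets, 5 were called higher and 0 lower on that scaling.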

How the results depend on the processing

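Of the single alternatives, the poly-A scaling changed the most calls. There limma called 2 members at 5 mg/L at each time, 2 for 5 against 1 mg/L at 180 min, and 0 for 1 mg/L at 120 min, for the difference between times at 5 mg/L, for controls over time and for 1 mg/L over time. Of all 5498 probe sets, it called 0 for 1 mg/L at 120 min and 0 for 1 mg/L over time. It called 5 higher and 0 lower for the difference between times at 5 mg/L, and 0 higher and 1 lower for controls over time. Signs that turned at 5 mg/L against control, for genes called on either scaling, were at 120 min GPH1 -0.24, GSY1 -0.71, GSY2 -0.54, GLG1 -0.59, TPS1 -0.064, NTH1 -0.43, ATH1 -0.37, BCY1 -0.41, DCS1 -0.23, GLC7 -0.71, GLC8 -0.41, GPA2 -0.41, HSF1 -0.21, HXK1 -0.44, MIG2 -0.12, PCL10 -0.67, PCL7 -0.47, PCL8 -0.67, REG2 -0.52, TPS3 -0.59 and YAK1 -0.35, and at 180 min NTH1 -0.10 and TPS3 -0.059. Called on neither scaling, MAL11 (-0.54) at 120 min and GLG1 (-0.24), PCL7 (-0.20), PCL8 (-0.21) and MSN4 (-0.22) at 180 min turned too. Between doses they were, at 120 min, GPH1 -0.75, GSY2 -0.70, GLC3 -0.34, GLG1 -0.68, TPS1 -0.24, TPS2 -0.17, TSL1 -0.16 and NTH1 -0.59, and at 180 min GLC3 -0.029 and NTH1 -0.013, with the uncalled GSY2 at -0.026. A fit on the compared arrays called 1 member for 1 mg/L at 120 min and 1 for 1 mg/L over time. Array weights called 5 members for the difference between times at 5 mg/L, 4 for that at 1 mg/L and 1 for 5 mg/L over time. Leaving out each array gave 1 to 3 members called for 1 mg/L at 120 min, 7 to 9 for 5 mg/L at 120 min, 7 to 8 at 180 min and 3 to 4 for the difference between times at 5 mg/L. Over all settings, 5 to 2203 probe sets were called for that difference, with 824 of 5498 in the main fit. For the difference at 1 mg/L it was 0 to 159 (main fit 0), and for 5 mg/L over time 2 to 655 (49). For 1 mg/L it was 0 to 1563 (561) over time and 0 to 252 (25) against control at 120 min. For 5 mg/L against control it was 2842 to 4373 (3194) at 120 min and 550 to 3812 (3374) at 180 min. Quantile normalization, median centring, the filter on dim probe sets and the trend and robust settings kept every count of members within 1.5 times its value. With the replicate block, 9 members were called at 5 mg/L at each time, as without it. Same-numbered arrays of different groups had residual correlations from -0.45 to 0.52 (median -0.0021), and different-numbered ones from -0.61 to 0.61 (median -0.030). Of the 18 arrays, 10 had their highest mean correlation with arrays of their own number. The numbers were not taken as pairs in the main fit, and whether they mark pairs was not settled. The change of each paralog ratio over both times kept its sign with quantile normalization and without each array. The causes were not tested.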
